A study of Mus musculus with 6 samples.

Results

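Expression of 9 genes of the retinoic acid pathway was examined in mouse embryonic hearts at E10.5. The genes cover retinol uptake (Stra6), synthesis (Rdh10, Aldh1a1, Aldh1a2), intracellular binding (Crabp1, Crabp2), the receptor and target Rarb, and breakdown (Cyp26a1, Cyp26b1). They were taken from the deposited table by matching its RefSeq identifiers to these symbols, and all 9 were found, each in a single row, among 23290 entries. All 9 were also among the 15387 entries that the authors tested. The mutant group comprised 3 hearts of genotype Nkx2-5Cre/+,Casz1f/f, in which the zinc finger factor gene Casz1 is floxed on both chromosomes and Cre recombinase sits at a single Nkx2-5 allele. The control group comprised 3 hearts of genotype Nkx2-5+/+,Casz1f/+, with 1 floxed Casz1 allele and no Cre. All embryos were of C57BL/6 background. By these genotypes every heart carried at least 1 floxed Casz1 allele, and the presence of Cre and of an altered Nkx2-5 locus went with the mutant group. The Nkx2-5 locus is active in heart muscle and its progenitors and also in pharyngeal endoderm, and heart cells without Cre keep Casz1.

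Retinoic acid is made from vitamin A and acts as a diffusible signal. Retinol enters cells through the STRA6 receptor, is oxidised to retinal by RDH10 and then to retinoic acid by the ALDH1A enzymes. The acid is carried by CRABP proteins, binds nuclear receptors of the RAR and RXR families on DNA, and is destroyed by CYP26 enzymes. In the embryo it patterns the venous pole of the heart tube and the pharyngeal region and hindbrain, and in the looped heart the epicardium is a known site of its synthesis.

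Levels were given as FPKM, a level per transcript length and per library size, with 1 value per genotype. The table holds no value per heart, so depth and the overlap between individual hearts are unknown here. The levels, fold changes, p and q given for any gene below are those of the authors' deposited table, and a gene was called at the authors' Cuffdiff q under 0.05. Log2 fold changes are mutant over control, and their standard error (SE) is the one implied by the authors' test statistic. Casz1 read 4.68 FPKM in mutant hearts and 6.61 FPKM in control hearts in the authors' deposited table (log2 -0.50, q = 1.00), a value that covers the whole gene model and cannot resolve deleted exons. Nkx2-5 read 82.9 FPKM in mutant hearts and 143 FPKM in control hearts (log2 -0.79, q = 0.536). Effects of the Casz1 deletion, of Cre and of the altered Nkx2-5 allele cannot be told apart in this design.

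Of the 9 retinoid genes, 1 rose in the mutant hearts, Crabp2, and 0 fell. For comparison, 0.305% of all tested entries were called higher and 0.117% lower. Another 2 members, Stra6 and Crabp1, had an unadjusted p under 0.05 and did not pass the adjustment, which makes 3 of 9 members against 3.17% of all tested entries at that unadjusted level. The remaining 6 members had log2 fold changes between -0.18 and 0.55. The log2 fold change lay above 0 for 8 of the 9 and below 0 for Aldh1a2, while 45.3% of tested entries with a finite fold lay above 0. The members had a median log2 fold change of 0.52, against -0.02 over all tested entries, and it was 0.28 after adding 1 FPKM to each value. The members were chosen with earlier results of these data known, so the values over all entries are given for description only.

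**Figure D1:**
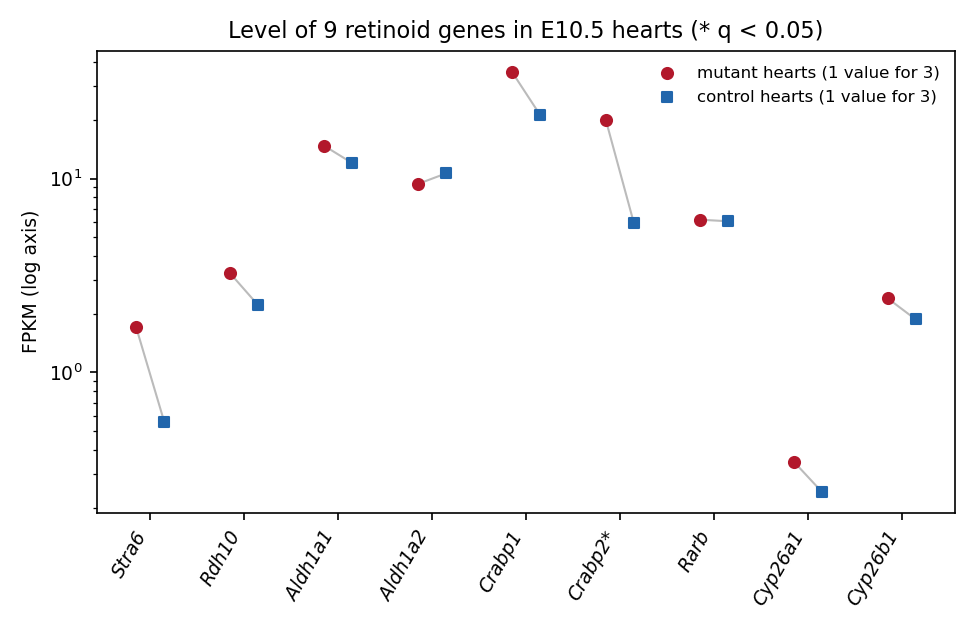
FPKM on a log axis for the 9 genes, in order of their role from uptake to breakdown, with mutant hearts as red circles and control hearts as blue squares (1 value for 3 hearts each, no error available). Crabp2, marked with an asterisk for q under 0.05, stood at 20.0 FPKM in mutant and 5.86 FPKM in control hearts, while Rarb stood at 6.14 and 6.02 FPKM.

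Stra6, the membrane receptor that takes up retinol from its plasma carrier, had the second largest fold change and a low level. It read 1.71 FPKM in mutant hearts and 0.554 FPKM in control hearts, 3.08-fold higher in the mutants. On the log2 scale this was 1.62 (SE 0.644, 95% interval 0.36 to 2.89), and the authors' deposited table gives an unadjusted p of 0.0117 and q = 0.725. With 1 FPKM added to both values it was 0.80. Stra6 lies on chromosome 9 from 58129088 to 58153997 (mm10).

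The other genes of retinol uptake and storage were not called. Rbp4, the plasma carrier of retinol, read 4.79 FPKM in mutant and 5.75 FPKM in control hearts (log2 -0.26). Of the 9 genes on this list 5 were tested, 0 were called in either direction, and the median log2 fold change was -0.06. Lrat, which esterifies retinol for storage, was at 0.00765 FPKM in mutant and 0.00383 FPKM in control hearts and was not tested.

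Rdh10, the retinol dehydrogenase of the embryo, read 3.25 FPKM in mutant hearts and 2.22 FPKM in control hearts. Its log2 fold change of 0.55 (SE 0.407, 95% interval -0.25 to 1.35) did not pass the test (q = 1.00). Dhrs3, which reduces retinal back to retinol and is itself induced by retinoic acid, read 4.00 FPKM in mutant and 3.03 FPKM in control hearts (log2 0.40, SE 0.460). The best expressed genes of the step were Adh5, at 86.2 FPKM in mutant and 86.1 FPKM in control hearts, and Dhrs4, at 23.0 and 25.3 FPKM. Of 14 genes on the list 10 were tested and 0 were called, with 6 above 0, 4 below 0 and a median log2 fold change of 0.00.

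The retinal dehydrogenases, which make retinoic acid, gave close values in both genotypes. Aldh1a2, the main enzyme of retinoic acid synthesis in the early embryo, read 9.38 FPKM in mutant hearts and 10.6 FPKM in control hearts. The log2 fold change was -0.18 (SE 0.310, 95% interval -0.79 to 0.43, q = 1.00 in the authors' deposited table). Aldh1a1 read 14.8 FPKM in mutant hearts and 12.0 FPKM in control hearts (log2 0.30, SE 0.304, 95% interval -0.30 to 0.89, q = 1.00). Together these enzymes summed to 24.1 FPKM in mutant and 22.6 FPKM in control hearts.

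Aldh1a3, the third enzyme of the family, was at 0.149 FPKM in mutant and 0.144 FPKM in control hearts. Aldh1a7, a close relative of Aldh1a1 next to it on chromosome 19, read 1.55 FPKM in mutant and 1.40 FPKM in control hearts. The coding sequences of Aldh1a1 and Aldh1a7 were 91.6% identical, with a longest identical run of 100 bases, so reads can be split between them and both values are uncertain. Aldh1a1 and Aldh1a2 were 67.2% identical, with a longest identical run of 20 bases. Of 5 genes on the list 4 were tested and 0 were called.

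The binding proteins held the largest fold change of the 9 members and their 1 called gene. Crabp2, which carries retinoic acid to the receptors in the nucleus, read 20.0 FPKM in mutant hearts and 5.86 FPKM in control hearts. It rose 3.42-fold (log2 1.77, SE 0.407, 95% interval 0.97 to 2.57), with p = 1.35e-05 and q = 0.00547 in the authors' deposited table. Among all tested entries 24.7% had a higher FPKM than Crabp2 in mutant hearts and 53.0% in control hearts. Crabp2 lies on chromosome 3 from 87948693 to 87953372. In these whole-heart samples more cells that express a gene and more RNA per cell cannot be told apart.

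Crabp1, which binds retinoic acid in the cytoplasm and is known for its expression in neural crest, was the most abundant member in both genotypes. It read 35.5 FPKM in mutant hearts and 21.3 FPKM in control hearts (log2 0.74, SE 0.356, 95% interval 0.04 to 1.44). The unadjusted p was 0.0380 and q was 1.00 in the authors' deposited table. Both carriers together summed to 55.6 FPKM in mutant and 27.2 FPKM in control hearts, a ratio of 2.05. The level of Crabp1 was 1.77 times that of Crabp2 in mutant hearts and 3.63 times in control hearts. The difference between the fold changes of the pair was not tested. Fabp5, another protein that can deliver retinoic acid, read 131 FPKM in mutant and 132 FPKM in control hearts (log2 -0.02).

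The first 90 coding bases of the CRABP pair are shown, since the genes are paralogs and only Crabp2 was called. They were read 5′ to 3′ from the GENCODE transcripts that carry the RefSeq identifiers of the table (mm10), both on the plus strand, Crabp1 on chromosome 9 and Crabp2 on chromosome 3, with capitals at the 30 positions that differ.
Crabp1: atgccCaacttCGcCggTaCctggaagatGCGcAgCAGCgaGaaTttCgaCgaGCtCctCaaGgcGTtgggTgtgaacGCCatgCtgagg
Crabp2: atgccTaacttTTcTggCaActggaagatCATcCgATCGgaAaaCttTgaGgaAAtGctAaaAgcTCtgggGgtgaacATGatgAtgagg
Over the whole coding sequences, of 411 and 414 bases, the pair was 70.3% identical and shared no identical run longer than 11 bases.

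Another 23 called genes reached 1 FPKM in each genotype, and the 3 of them with log2 fold changes nearest to that of Crabp2 were Lmod1 (1.78), Mrvi1 (1.79) and Vsnl1 (1.75), at distances of 0.0079 to 0.0243 on the log2 scale over the 2 genotype values. Lmod1 encodes a leiomodin of smooth muscle filaments and Vsnl1 a neuronal calcium sensor. Lmod1 read 14.2 FPKM in mutant and 4.12 FPKM in control hearts, Mrvi1 read 10.1 FPKM in mutant and 2.92 FPKM in control hearts, and Vsnl1 read 29.8 FPKM in mutant and 8.86 FPKM in control hearts in the authors' deposited table.

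**Figure D2:**
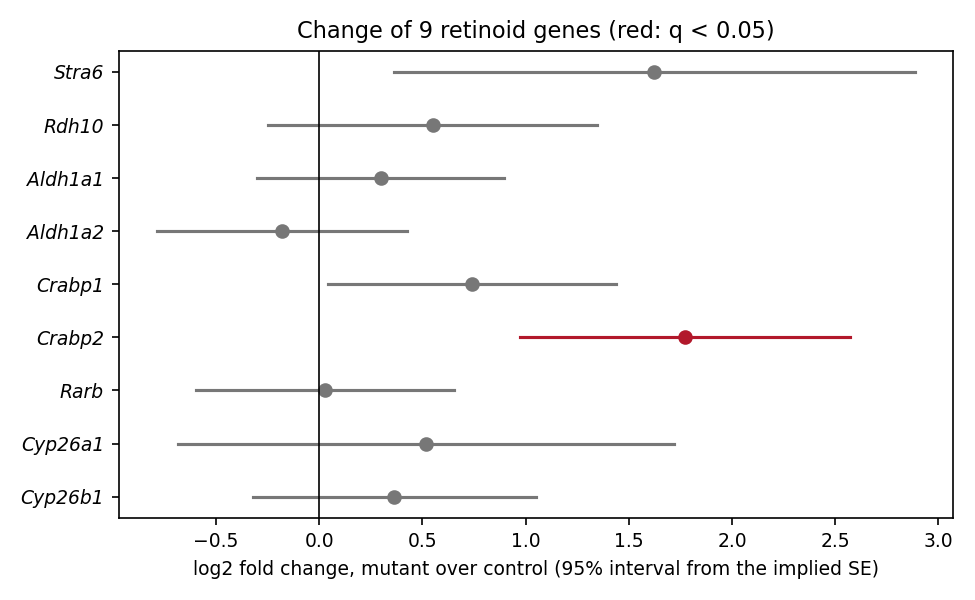
Log2 fold change, mutant over control, of the 9 genes with 95% intervals from the SE implied by the authors' test statistic. The interval of Crabp2 (red, q under 0.05) runs from 0.97 to 2.57. That of Stra6 starts at 0.36, that of Crabp1 starts just above 0, and the other 6 include 0.

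Rarb, a retinoic acid receptor that is itself induced by retinoic acid, gave close values in both genotypes. It read 6.14 FPKM in mutant hearts and 6.02 FPKM in control hearts (log2 0.03, SE 0.319, 95% interval -0.60 to 0.65, q = 1.00 in the authors' deposited table). In the GENCODE annotation the exons of Rarb overlap those of Top2b, on the opposite strand, over 1793 bases. The labels do not say whether counting used strand, so reads from the shared stretch cannot be assigned, although the deposited Rarb and Top2b intervals do not overlap. Top2b read 30.4 FPKM in mutant and 31.1 FPKM in control hearts.

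The promoter of Rarb holds the textbook retinoic acid response element, a direct repeat of a hexamer with 5 bases between the copies. Windows from 250 bases before to 50 bases after the start site (RefSeq, GRCm38.p6) were available for 7 members, all but Crabp2 and Rdh10. Both strands were searched for direct repeats of the hexamers AGGTCA, with its variant GGGTCA, and also AGTTCA, with its variant GGTTCA, in any pairing, with 1, 2 or 5 bases between them. The repeat spaced by 5 bases was found in 2 of the 11 windows of the members, those of Rarb and Cyp26a1, and in 0.0975% of all 32817 windows (32 windows). The hexamers searched include those of the Rarb element, known beforehand, so the share over all windows is no test of the members. The repeats spaced by 1 and 2 bases were found in no window of the members, and in 0.222% and 0.268% of all windows. The windows of Rarb and Cyp26a1 are shown 5′ to 3′ on the strand of the gene, with the hexamers in capitals.
Rarb, minus strand, chr14:16575427-16575726: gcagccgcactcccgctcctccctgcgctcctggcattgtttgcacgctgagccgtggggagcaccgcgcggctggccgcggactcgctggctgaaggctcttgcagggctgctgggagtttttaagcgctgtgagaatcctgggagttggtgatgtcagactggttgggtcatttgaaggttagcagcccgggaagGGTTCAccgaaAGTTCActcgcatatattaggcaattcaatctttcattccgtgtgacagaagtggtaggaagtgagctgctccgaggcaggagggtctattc
Cyp26a1, plus strand, chr19:37697558-37697857: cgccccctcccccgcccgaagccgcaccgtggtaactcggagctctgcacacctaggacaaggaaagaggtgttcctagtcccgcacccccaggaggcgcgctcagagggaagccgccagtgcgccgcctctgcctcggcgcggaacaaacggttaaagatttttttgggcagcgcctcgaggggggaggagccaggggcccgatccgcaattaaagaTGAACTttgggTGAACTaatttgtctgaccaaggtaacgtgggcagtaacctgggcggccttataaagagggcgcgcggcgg
The Rarb repeat reads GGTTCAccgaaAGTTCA and lies 37 to 53 bases before the start site, which is itself upstream of the deposited Rarb interval. The Cyp26a1 repeat lies on the opposite strand, where it reads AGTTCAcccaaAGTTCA, 16 to 32 bases before the start site (counted as 0). The match is in letters only, and binding was not measured.

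The receptors as a group gave close values in both genotypes. Besides Rarb, Rara read 13.5 FPKM in mutant and 12.8 FPKM in control hearts, Rarg read 4.42 and 4.17 FPKM, and the shared partner Rxrb read 22.7 and 22.6 FPKM in mutant and control hearts. All 6 receptors were tested, 0 were called, and the log2 fold changes ran from -0.03 to 0.16. The 8 cofactors, among them the corepressor Ncor1 (log2 -0.08), ran from -0.13 to 0.16 with 0 called.

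The CYP26 enzymes, which clear retinoic acid, were at low levels. Cyp26b1 read 2.41 FPKM in mutant hearts and 1.88 FPKM in control hearts (log2 0.36, SE 0.350, 95% interval -0.32 to 1.05). Cyp26a1, whose gene is a sensitive target of retinoic acid, read 0.347 FPKM in mutant hearts and 0.242 FPKM in control hearts (log2 0.52, SE 0.613, 95% interval -0.68 to 1.72). Neither was called (q = 1.00 for each in the authors' deposited table). Cyp26c1, the third enzyme, read 0.102 FPKM in mutant and 0.0152 FPKM in control hearts. Its log2 fold change of 2.75 (SE 1.23, q = 1.00) became 0.12 with 1 FPKM added to each value.

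**Figure D3:**
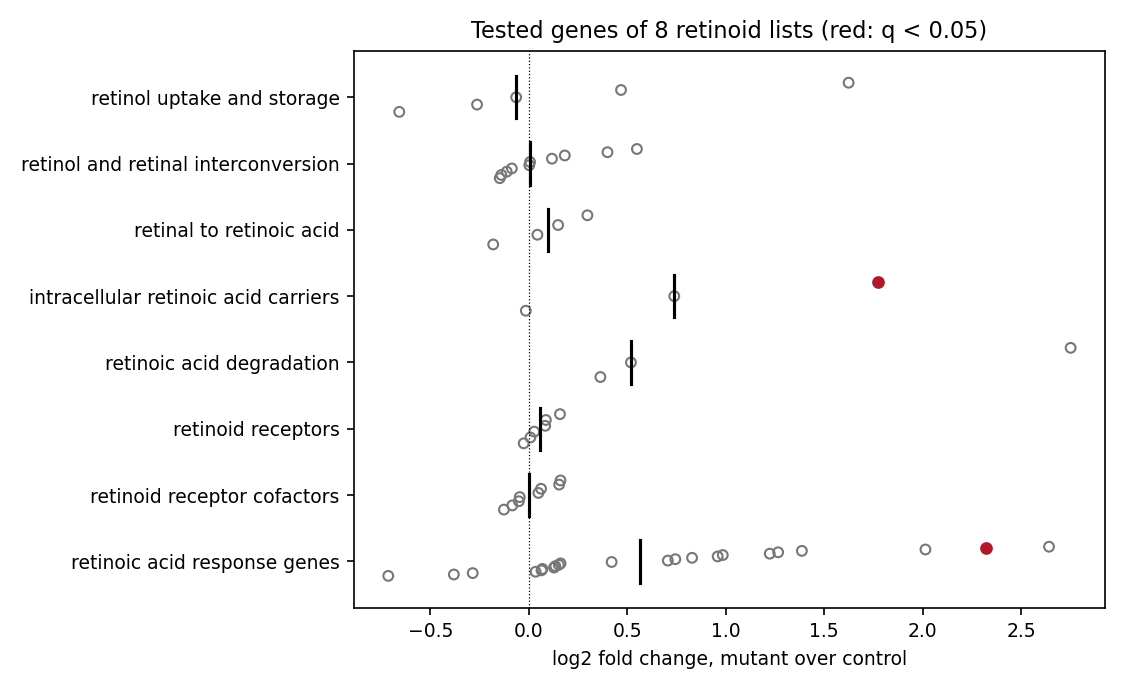
Log2 fold change, mutant over control, of each tested gene in 8 retinoid lists, with called genes in red and the list median as a black bar. Crabp2 and Hoxa2 are the 2 red points, and the receptors and their cofactors lie between -0.13 and 0.16.

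Genes known to respond to retinoic acid were described from a list of 24, of which 22 were tested. Hoxa2, a homeobox gene of hindbrain and pharyngeal arch patterning, rose to 1.85 FPKM in mutant hearts, against 0.370 FPKM in control hearts. That is a log2 fold change of 2.32 (SE 0.602, 95% interval 1.14 to 3.50) at q = 0.0304 in the authors' deposited table. It was the 1 gene of the list called higher, 0 were called lower and 21 did not pass. Among all tested entries 0.305% were called higher and 0.117% lower. Without Hox genes, a count chosen after the data were seen, 0 of 13 were called higher. These counts depend on how genes were placed on the lists. Rarb, Cyp26a1 and Dhrs3, described here as induced by or targets of retinoic acid, stand on other lists and are not counted. The same holds for Stra6 and for Crabp2, which was called higher.

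Another 5 response genes had an unadjusted p under 0.05 and were not called, while 3.17% of all tested entries had such a p. Hoxb1, a direct retinoic acid target of the hindbrain and posterior heart field, read 0.384 FPKM in mutant hearts and 0.0615 FPKM in control hearts (log2 2.64, SE 0.758, q = 0.0905). Hoxa3 read 1.87 FPKM in mutant and 0.463 FPKM in control hearts (log2 2.01, q = 0.244). With 1 FPKM added, the log2 values were 1.06 for Hoxa2, 0.38 for Hoxb1 and 0.97 for Hoxa3. Hoxa3 shares its deposited interval with Hoxa4 and Hoxa5, and it overlaps other annotated transcripts on both strands, so its reads may be shared. Hoxa2 shares 267 exonic bases with another annotated gene on its own strand. All 9 Hox genes of the list were tested and 8 lay above 0, the exception being Hoxd4 (log2 -0.38), with a median of 1.27.

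The orphan receptors Nr2f1 and Nr2f2, COUP-TF factors that retinoic acid induces and that are known for atrial identity, had higher values at moderate levels. Nr2f1 read 18.9 FPKM in mutant hearts and 9.57 FPKM in control hearts (log2 0.99, SE 0.303, q = 0.157). Nr2f2 read 13.8 FPKM in mutant and 8.43 FPKM in control hearts (log2 0.71, SE 0.290, q = 0.824). Tgm2, the transglutaminase induced by retinoic acid in many cells, had a lower value, at 67.0 FPKM in mutant and 110 FPKM in control hearts (log2 -0.71, SE 0.308, q = 0.981). The exons of Nr2f1, Nr2f2 and Tgm2 overlap annotated transcripts on the opposite strand, and strand use is not stated. The best expressed gene of the list, the growth factor midkine Mdk, read 596 FPKM in mutant and 536 FPKM in control hearts (log2 0.15). Meis1, Meis2 and Tbx5, homeobox and T-box factors of the heart field, had log2 fold changes from 0.03 to 0.16.

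**Figure D4:**
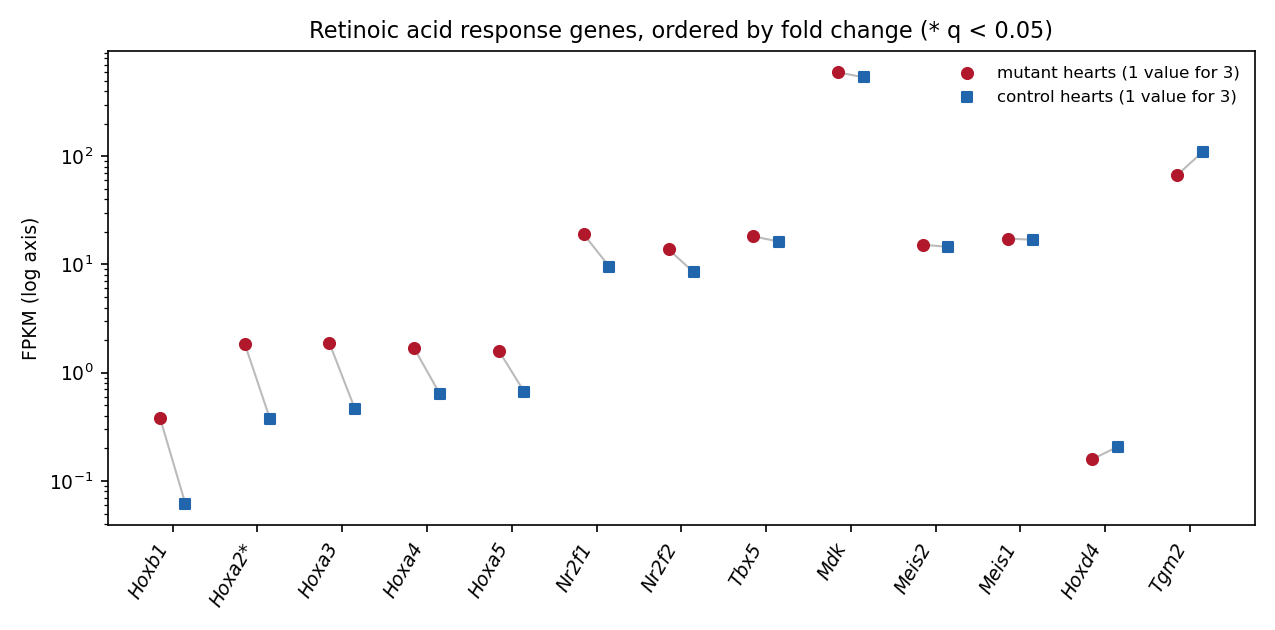
FPKM on a log axis of the tested retinoic acid response genes named in the text, from the highest to the lowest log2 fold change, with mutant hearts as red circles and control hearts as blue squares (1 value for 3 hearts each). The 5 genes at the left are Hox genes, all under 2 FPKM, while Meis1, Tbx5 and Mdk are close between the genotypes.

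Over all 8 lists, 61 of 72 genes were tested, 2 were called higher (Crabp2 and Hoxa2) and 0 lower. An unadjusted p under 0.05 was reached by 10 of the 61, of which 9 were higher and Tgm2 was lower. Over all tested entries 0.305% were called higher, 0.117% lower, and 3.17% had an unadjusted p under 0.05. The lists were chosen with earlier results of these data known, so these shares are given for description only. Leaving out the 9 members, 1 of 52 tested genes was called and the median log2 fold change was 0.08.

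Markers of cell types that use or make retinoic acid were read in the same table. These lists too were chosen with earlier results of these data known. Beside the counts below, 0.305% of all tested entries were called higher and 0.117% lower. Of 12 foregut and pharyngeal endoderm markers 7 rose and 0 fell, and their summed level was 28.3 FPKM in mutant and 9.65 FPKM in control hearts. Among the 7 called, the 4 with the largest folds were the pharyngeal pouch factors Pax1 (log2 5.74) and Pax9 (log2 3.66), the hedgehog ligand Shh (log2 2.95) and the forkhead factor Foxa1 (log2 2.34). These markers are low, with Pax1 at 1.64 FPKM in mutant and 0.0306 FPKM in control hearts. Of 10 splanchnic and pharyngeal mesoderm markers 2 rose, Foxf1 (log2 2.04) and Tbx1 (log2 2.05), 0 fell, and the sum was 85.4 FPKM in mutant and 75.4 FPKM in control hearts. Of 7 venous pole markers Shox2 rose (log2 1.68), 0 fell, and the sum was 106 FPKM in mutant and 81.9 FPKM in control hearts. Their log2 fold changes lay above 0 for 5 and below 0 for 2, Tbx18 (log2 -0.01) and Gjc1 (log2 -0.02). Bmp4, not called, read 28.6 FPKM in mutant and 20.0 FPKM in control hearts within that sum. The part of these markers in the values of Crabp2, Stra6, Crabp1 and the Hox genes was not tested.

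Epicardial markers, of the cell layer known for Aldh1a2 in the looped heart, ran from a log2 fold change of -1.48 to 1.21, with a median of -0.05. Wt1 read 12.3 FPKM in mutant and 13.8 FPKM in control hearts (log2 -0.17), Tbx18 read 13.5 and 13.6 FPKM (log2 -0.01), and Upk3b read 55.0 and 59.6 FPKM (log2 -0.12). Of 11 markers Krt8, a keratin of simple epithelia in general, rose (log2 1.21, q = 0.0169) and 0 fell. Krt8 read 91.5 FPKM in mutant and 39.7 FPKM in control hearts, and its partner Krt18, not called, read 65.2 FPKM in mutant and 39.0 FPKM in control hearts (log2 0.74, q = 0.695). Msln, a mesothelial surface protein, read 0.143 FPKM in mutant and 0.401 FPKM in control hearts (log2 -1.48, q = 0.746). The list summed to 346 FPKM in mutant and 265 FPKM in control hearts, and the keratins Krt8 and Krt18 made up most of that difference. Of 12 neural crest and neuron markers 10 were tested and 0 called, with a sum of 27.7 FPKM in mutant and 22.6 FPKM in control hearts. The neuronal tubulin Tubb3 read 17.3 FPKM in mutant and 13.7 FPKM in control hearts, and the crest receptor Erbb3 read 2.21 FPKM in mutant and 2.38 FPKM in control hearts. Other crest genes, chosen after their values were seen, were all under 1 FPKM. Tfap2a read 0.679 FPKM in mutant and 0.240 FPKM in control hearts, Tfap2b read 0.134 FPKM in mutant and 0.0235 FPKM in control hearts, and Sox10 read 0.331 FPKM in mutant and 0.344 FPKM in control hearts. The part of crest cells in the higher value of Crabp1 was not tested.

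Heart muscle markers were high in both genotypes. All 13 were tested and 0 were called, with a sum of 22866 FPKM in mutant and 23476 FPKM in control hearts, and 10 of the 13 had a log2 fold change below 0 (median -0.21). Myl7, a light chain of atrial myosin, read 7496 FPKM in mutant and 5080 FPKM in control hearts (log2 0.56), and its ventricular counterpart Myl2 read 3942 FPKM in mutant and 5549 FPKM in control hearts (log2 -0.49). The peptide hormone gene Nppa read 888 FPKM in mutant and 1755 FPKM in control hearts (log2 -0.98, q = 0.746), and it and Nkx2-5 were the 2 with an unadjusted p under 0.05. Endothelial markers summed to 262 FPKM in mutant and 301 FPKM in control hearts, and liver markers to 48.8 FPKM in mutant and 61.6 FPKM in control hearts, with 0 called on either list. Plvap and Tie1 had log2 fold changes of -0.20 and -0.16, and Afp and Apoa2 of -0.36 and -0.23. No marker of the 8 lists stood at 0 in either genotype.

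**Figure D5:**
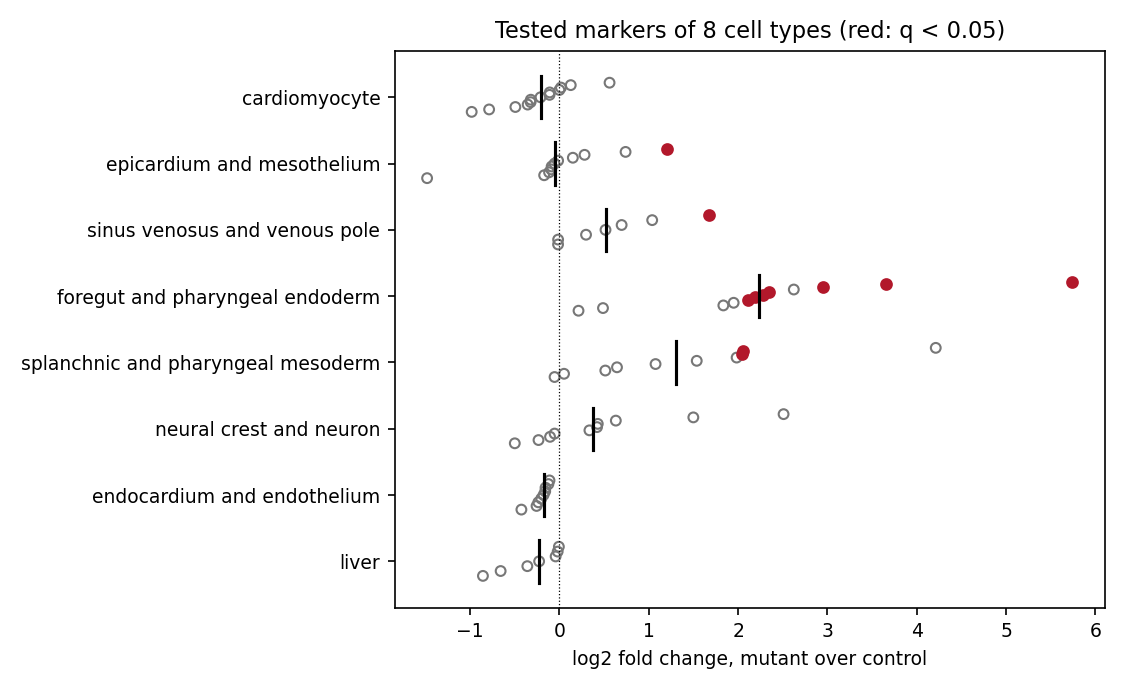
Log2 fold change, mutant over control, of the tested markers of 8 cell types, with called genes in red and list medians as black bars. Foregut and pharyngeal endoderm markers lie to the right with a median of 2.23, and epicardial and heart muscle markers centre on -0.05 and -0.21.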

How the data were processed

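RNA from 6 individually harvested hearts was sequenced. Per the submitters' processing notes, the tools included Cuffdiff, Cufflinks 2.1.1, Bowtie2 2.1.0.0 with TopHat2 2.0.8, FastQC 0.10.1 and SAMtools 0.1.19.0, with build mm10. FPKM values were deposited by the authors as 1 value per genotype, per the file headers, with 0 columns per sample, so depth is unknown and no counting interval can be given. Log2 fold changes and test scores are deposited beside them, with placeholder numbers where a genotype is at 0. The p-values and their adjusted q-values are the authors' own. Normalization between libraries and dispersion settings are not given in the sources used here.

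The deposited p matched the normal tail of the test statistic within 1e-05. The deposited q matched Benjamini-Hochberg values recomputed from p within 2e-05. The statistic ran opposite in sign to the fold change in 100% of tested entries with a finite fold. Directions here follow the fold change, which matched the ratio of mutant to control FPKM. The SE was therefore taken as the absolute value of fold change over statistic. That SE rests on Cuffdiff's model and was not checked against individual hearts. Entries were named through RefSeq (22995) and GENCODE (130), 99.3% in all, and starts were shifted to count from 1. For each gene the tested row with the highest mean FPKM was taken. Members and lists were chosen with earlier results of these data known. Named are all members, list genes called or with an unadjusted p under 0.05 (else the 2 best expressed), for markers up to 4 called (else the 2 best expressed), the 3 called genes nearest to a called member in fold, and others chosen after their values were seen. Calculations were tested on simulated data and used Python 3.11.15, numpy 2.4.6, pandas 2.3.3, scipy 1.17.1, biopython 1.88 (global alignment of coding sequences) and matplotlib 3.10.9. Protein sequences were not used here, and values of some list genes are not reported here. The sequences shown are from RefSeq (promoters) and GENCODE (coding bases).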

Additional observations from a re-analysis of the deposited data

How the results depend on the processing

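Crabp2 was the 1 member called higher, and 0 members were called lower, at q under 0.01, at q under 0.10, with at least 2-fold change, and with the adjustment recomputed over entries with at least 1 FPKM in either genotype. Over the 8 retinoid lists 1 gene was called higher at q under 0.01, against 2 at q under 0.05, since Hoxa2 has q = 0.0304, and 3 at q under 0.10, when Hoxb1 joins. The median log2 fold change of the members was 0.39 with a pseudocount of 0.1 FPKM and 0.28 with a pseudocount of 1 FPKM, against 0.52 without; Cyp26a1, the median gene, itself gave 0.12 with 1 FPKM added. It was 0.44 without Crabp2, an alternative chosen after the data were seen. Of 27 single member values recomputed with pseudocounts or centring, 26 moved by less than their SE, 0 changed sign and 1 moved by more, Stra6 with 1 FPKM added (0.80). No member had a further row to try. Values without each heart could not be had, as the table has 0 columns per sample. No paired analysis was possible because the table holds 1 value per genotype. The interval of Cyp26a1 ran from -0.68 to 1.72, so a wide range of changes remains possible for this gene. An interval that excludes 0 was not enough for a call, as for Stra6 and Crabp1, so larger changes could also have been missed.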

Other observations

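Crabp2 belongs to the family of small intracellular lipid-binding proteins, and its relatives were read after the called genes had been seen. Of 10 other family members, the fatty acid carriers of the Fabp group with Pmp2 and Rbp7, 4 were tested and 0 were called in the authors' deposited table. Among all tested entries 0.305% were called higher and 0.117% lower, so a count of 0 among 4 genes says little about the family. Fabp3, the heart fatty acid carrier, read 149 FPKM in mutant and 163 FPKM in control hearts (log2 -0.13), and Fabp4, the adipocyte and capillary carrier, read 0.576 FPKM in mutant and 0.957 FPKM in control hearts (log2 -0.73). Fabp7, the brain and radial glia carrier, read 1.01 FPKM in mutant and 0.965 FPKM in control hearts, and Rbp7 read 0.626 FPKM in mutant and 0.703 FPKM in control hearts. Fabp6 and Fabp9 were listed at 0 in both genotypes.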
